A study of Danio rerio with 7 samples.

Results

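The genes of the transforming growth factor beta (TGF beta) and bone morphogenetic protein (BMP) superfamily were compared between late and early zebrafish heart repair. The cells were sorted by a label designed to mark those that used postnb soon after injury, and their progeny. A gene was a member if its name is that of a TGF beta, BMP, GDF or activin ligand, of one of their receptors, SMADs, SMURFs, latent binding proteins or extracellular antagonists, or of a SKI, PMEPA1 or ID gene. By this rule 101 of 31388 gene IDs were members. The rule goes by name alone, so it also took in a few genes that do not act in the pathway, and these are described last.

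The fish were adults of 3 to 9 months that carried postnb:CreERT2, a tamoxifen-dependent recombinase under postnb control, and the reporter ubb:loxP-GFP-loxP-mCherry. All received 10 µM 4-OHT, the active form of tamoxifen, on the nights of 3 and 4 days post injury (dpi). By this design cells using postnb at that time, and their progeny, turn from GFP to mCherry. Whether other cells carried the label was not tested here. The injury was a cryoinjury of the ventricle, and mCherry-positive cells were sorted from the apex at 60 dpi (3 pools, replicates 1, 2 and 4) or 7 dpi (4 pools, replicates 1, 2, 3 and 4), each pool from 3 to 5 hearts. Genotype, treatment and age range were the same in both groups, and uninjured hearts and unlabelled cells were not analysed here. Values are TPM, a transcript abundance corrected for length and scaled to a fixed sum per library, from which the sequencing depth cannot be read, so it is unknown. Values of single pools are given for replicates 1, 2 and 4 at 60 dpi and for replicates 1, 2, 3 and 4 at 7 dpi, in that order.

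TGF beta and BMP ligands are secreted as dimers, and TGF beta itself is released in a latent form bound to matrix proteins. A ligand brings type II and type I receptor kinases together. The type I receptor then phosphorylates receptor SMADs, SMAD2 and SMAD3 in the TGF beta and activin branch and SMAD1, SMAD5 and SMAD9 in the BMP branch. These enter the nucleus with SMAD4. SKI proteins and the inhibitory SMADs limit the response. In injured hearts TGF beta and activin signals are known for driving fibroblasts to make matrix, and in zebrafish the pathway is needed both for the transient scar and for regeneration. The roles given below are those known for the vertebrate proteins, mostly from mammals.

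Of the 101 members, 70 had at least 1 TPM in at least 3 libraries and were tested; 10 were listed at 0 in every library and 17, these included, stayed under 1 TPM throughout. With limma on log2(TPM + 1) and Benjamini-Hochberg adjustment over all 15130 genes tested, 7 members passed an adjusted p of 0.05. These were 10% of the 70, against 6.88% of all tested genes. The members that rose were FSTL3, ID3, TGFBR3, smad9 and TGFB3, 7.14% of the 70 against 3.20% of all tested genes. The members that fell were tgfb1b and BMP2K, 2.86% against 3.68%. A further 63 did not pass, and 16 of the 70 (22.9%) had an unadjusted p under 0.05, against 22.0% of all tested genes. The median log2 fold change, 60 minus 7 dpi, was 0.34 over the tested members and -0.04 over all tested genes, and 46 members (65.7%) against 48.3% of all tested genes had a positive value. With TPM rescaled to the IDs that carry a symbol, the median moved to 0.14 for the members and to -0.26 for all tested genes, and 39 of 71 tested members had a positive value. In that scaling 31.6% of calls over all genes were higher at 60 dpi, in place of 46.5%. Without 7 dpi replicate 4 the median was 0.12 for the members and -0.17 for all tested genes, and 37 of 68 tested members had a positive value. Without both replicate 4 libraries the medians were 0.30 and -0.079, and 40 of 65 tested members had a positive value.

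In 13 members (18.6%) every 60 dpi pool lay above every 7 dpi pool, against 10.3% of all tested genes, and in 4 (5.71%) every 60 dpi pool lay below, against 11.0%. The 13 were FSTL3, ID3, TGFBR3, smad9, TGFB3, LTBP1, both IDs named TGFBR2, tgfb5, skilb, SKI, SMAD4 (ENSDARG00000012649) and FST (ENSDARG00000057992). The 4 were tgfb1b, BMP2K, SMURF1 and GREM1 (ENSDARG00000104618). The p-values compare the difference of the group means with the spread between these pools, which limma moderates over all genes tested.

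**Figure D1:**
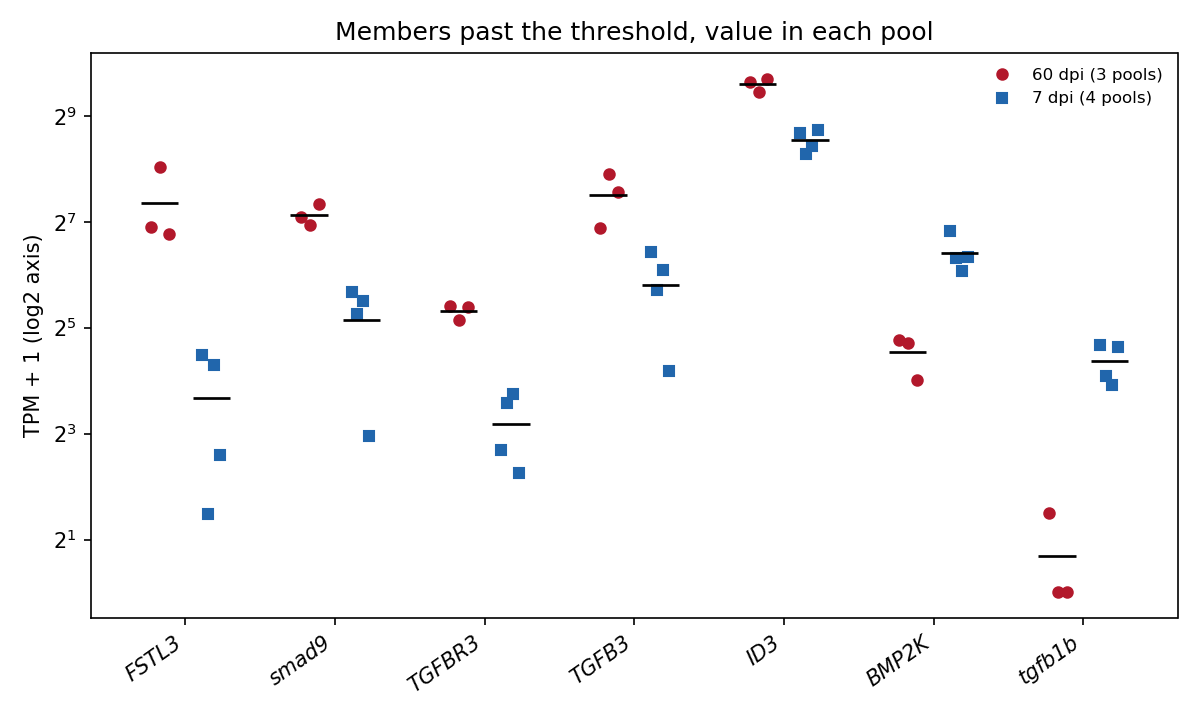
TPM + 1 on a log2 axis for the 7 members past the threshold, with 1 point per pool (circles, 60 dpi; squares, 7 dpi) and a bar at the arithmetic mean of each group's TPM, plus 1. The groups do not overlap in any of them, and replicate 4 is the lowest 7 dpi pool for smad9, TGFB3 and TGFBR3.

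Gene detection was uneven: 14061, 13352 and 10840 IDs had at least 1 TPM at 60 dpi and 14599, 15305, 15431 and 9844 at 7 dpi, and 17 and 23 tested members were under 1 TPM in replicate 4 at 60 and 7 dpi against 3 to 7 in the others. Such libraries, amplified from 0.2 to 0.6 ng of RNA, can lose scarce transcripts, so a 0 need not mean absence. With both replicate 4 libraries left out, 65 members were tested. Of these 65, 3 (FSTL3, smad9 and LTBP1) were higher, against 2.79% of all tested genes, and 2 were lower, against 5.09%. All 14 fibroblast and lineage marker IDs were detected, with a summed level of 7197 to 8764 TPM at 60 dpi and 6481 to 8905 TPM at 7 dpi. Within that list DCN, DPT and PDGFRA rose, and 1 ID each of FN1 and POSTN fell. Over all tested genes 3.20% rose and 3.68% fell. The POSTN ID that fell (ENSDARG00000104267) averaged 109 TPM at 60 dpi and 948 TPM at 7 dpi. The other FN1 and POSTN IDs did not pass, with log2 fold changes of -0.58 and -1.34. In 4 of the 14 IDs, these included, every 60 dpi pool lay below every 7 dpi pool, against 11.0% of all tested genes. In 3 every 60 dpi pool lay above, against 10.3%. Macrophage and general leukocyte markers were also present, and 20 of 25 tested fell. The sum of their 26 IDs was 2508 to 5433 TPM at 60 dpi and 9695 to 13753 TPM at 7 dpi. Of 3 IDs named MPEG1, a macrophage perforin gene, the 2 that were tested did not pass, with 54.4 to 157 and 9.91 to 102 TPM at 60 dpi and 109 to 215 and 55.6 to 147 TPM at 7 dpi. The remaining one was listed at 0 in every 60 dpi pool and had at most 0.85 TPM at 7 dpi. The TPM of epicardial markers (10 IDs, 2 rose) summed to 2375 to 3339 at 60 dpi and 1350.3 to 2237 at 7 dpi. The 2 that rose were the keratin genes krt4 and krt94. Most of the epicardial sum was ANXA2 and krt94. ANXA2 did not pass, with means of 1335 TPM at 60 dpi and 1060 TPM at 7 dpi (limma adjusted p = 0.517). Of the 10 IDs, 9 had a positive log2 fold change and ALDH1A2 a negative one (-0.61). The TPM of mural cell markers (9 IDs, 2 of 7 tested rose) summed to 797 to 1081 at 60 dpi and 156 to 389 at 7 dpi. Most of the mural sum at 60 dpi was rgs5b, with 748 ± 167 TPM at 60 dpi (SD, n = 3) and 112 ± 39.4 TPM at 7 dpi (SD, n = 4). MYH11 (ENSDARG00000009782), a smooth muscle myosin gene, had the opposite sign (log2 fold change -1.46, limma adjusted p = 0.121). Every 60 dpi pool of MYH11 lay below every 7 dpi pool. The sign was also negative for acta2 (-2.66, limma adjusted p = 0.128), whose groups overlapped. Cardiomyocyte markers (14 IDs, 1 of 12 tested rose) summed to 373, 4141 and 2928 TPM at 60 dpi and to 345 to 749 TPM at 7 dpi. MYL7 rose, with 195, 1389 and 1319 TPM at 60 dpi and 99.7 to 277 TPM at 7 dpi (limma adjusted p = 0.0467). In all 10 of the 12 had a positive log2 fold change, and MYH6 (ENSDARG00000079564, -1.41) and nppa (-0.75) a negative one. The expressed TNNT2 ID had 82.4, 1052 and 987 TPM at 60 dpi and 40.6 to 203 TPM at 7 dpi. A second TNNT2 ID was listed at 0 in all pools, and myl4 in all but 1. Endothelial and endocardial markers (13 IDs, all tested, none passed) summed to 169 to 279 TPM at 60 dpi and 101 to 253 TPM at 7 dpi. The part of these other cell types in the results below was not tested beyond the values given. In pools of sorted cells, fewer cells of a type and less RNA per cell cannot be told apart.

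Of the 5 TGF beta ligand genes, TGFB3 rose (20% against 3.20% of all tested genes), tgfb1b fell (20% against 3.68%) and the others did not pass. TGFB3 (ENSDARG00000019367), a ligand made by mesenchymal cells, had 117, 239 and 187 TPM at 60 dpi, against 85.4, 51.3, 66.8 and 17.0 TPM at 7 dpi. All 60 dpi pools lay above all 7 dpi pools, the lowest of which was replicate 4. The means were 181 ± 61.0 TPM at 60 dpi (SD, n = 3) and 55.1 ± 29.0 TPM at 7 dpi (SD, n = 4). The log2 fold change was 1.85 ± 0.51 (SE), with an adjusted p of 0.0493 by limma. This call lay at the threshold: it was lost in 12 of 17 alternatives, among them leaving out 60 dpi replicate 1, 2 or 4 (adjusted p = 0.0574, 0.159 and 0.117) or 7 dpi replicate 2 or 3 (0.0868 and 0.0684), and the log2 fold change was 1.32 without both replicate 4 libraries (0.0854).

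tgfb1b (ENSDARG00000034895), one of the pair of zebrafish genes for TGF beta 1, was at 1.82, 0 and 0 TPM at 60 dpi, against 24.5, 16.1, 14.1 and 24.0 TPM at 7 dpi. Every 7 dpi pool held it, and at 60 dpi replicates 2 and 4 listed none. It fell by 3.83 ± 0.77 on the log2(TPM + 1) scale (SE, limma adjusted p = 0.0122), a scale that understates changes of low genes, and the call was kept in 16 of 17 alternatives. In the fit with the replicate number as a block, its adjusted p was 0.0636. Its partner tgfb1a (ENSDARG00000041502) had 62.5, 129.6 and 105 TPM at 60 dpi, against 65.9, 52.2, 56.5 and 86.5 TPM at 7 dpi. The groups of tgfb1a overlapped, and its log2 fold change was 0.56 ± 0.37 (SE, limma adjusted p = 0.41), with a 95% interval of -0.24 to 1.36. Leukocyte markers moved in the direction of tgfb1b. Of the tested IDs, 20 of 25 macrophage and general leukocyte, 4 of 8 lymphocyte and 2 of 7 neutrophil ones fell. Over all tested genes 3.68% fell. The lymphocyte sum was 28.0 to 118 TPM at 60 dpi and 225 to 716 TPM at 7 dpi, with PAX5, cd79b, lck and nkl.4 listed at 0 in every 60 dpi pool. The neutrophil sum was 31.9 to 67.6 TPM at 60 dpi and 334 to 474 TPM at 7 dpi, with CXCR1, cxcr1 and npsn listed at 0 in every 60 dpi pool. Of 11 erythrocyte and thrombocyte IDs, itga2b and mpl, a thrombocyte integrin and the thrombopoietin receptor, fell, and 10 had a negative log2 fold change. In 5 of the 11 every 60 dpi pool lay below every 7 dpi pool, against 11.0% of all tested genes. The sum of these 11 IDs was 756 to 6194 TPM at 60 dpi and 3298 to 7347 TPM at 7 dpi. The part of blood cells in the fall of tgfb1b was not tested.

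**Figure D2:**
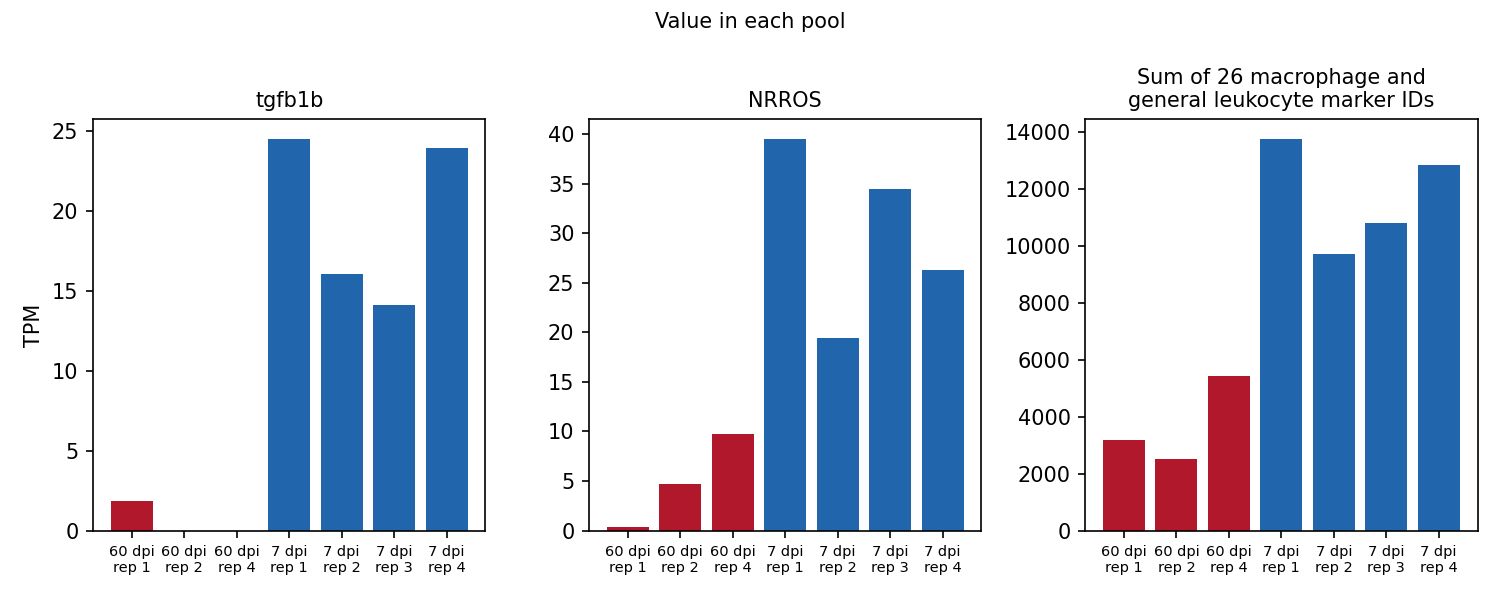
TPM in each pool for tgfb1b, for NRROS, which holds latent TGF beta on myeloid cells, and for the sum of 26 macrophage and general leukocyte marker IDs, on linear axes that start at 0. All 3 quantities are lower in each of the 3 pools at 60 dpi than in any of the 4 at 7 dpi, and 0 is listed for tgfb1b in replicates 2 and 4 at 60 dpi.

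TGFB2 (ENSDARG00000027087), a ligand of developing heart valves and epicardium, had 30.8, 26.5 and 0.36 TPM at 60 dpi, against 17.4, 22.6, 25.0 and 22.5 TPM at 7 dpi. Replicate 4 at 60 dpi was near 0 while the other 60 dpi pools lay above all 7 dpi pools. Its log2 fold change was -1.10 ± 0.94 (SE, limma adjusted p = 0.547), and it turned to 0.40 without both replicate 4 libraries and to 0.38 without 60 dpi replicate 4. tgfb5 (ENSDARG00000071879), a further TGF beta ligand of fish, had 45.0, 31.3 and 25.1 TPM at 60 dpi, against 4.50, 13.1, 8.80 and 10.4 TPM at 7 dpi. The groups of tgfb5 did not overlap, but its log2 fold change of 1.81 ± 0.55 did not pass (SE, limma adjusted p = 0.0713; 0.0529 to 0.224 over the alternatives). tgfb5 lay outside the rule for genes to be named and was chosen after its values were seen.

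Because TPM is a level per length, the ligand genes can be set side by side. Their sum was 257, 426 and 318 TPM at 60 dpi, against 198, 155, 171 and 160.4 TPM at 7 dpi, without overlap. TGFB3 made up 53.5% ± 6.99 of that sum at 60 dpi (SD, n = 3) and 31.5% ± 14.5 at 7 dpi (SD, n = 4), and tgfb1a 29.3% ± 4.55 at 60 dpi and 38.5% ± 10.3 at 7 dpi. At 7 dpi replicate 4 stood apart, with 10.6% for TGFB3 and 53.9% for tgfb1a. The share of tgfb1b was 0.707, 0 and 0% at 60 dpi and 12.4, 10.3, 8.24 and 15.0% at 7 dpi. tgfb5 took 10.9% ± 5.69 at 60 dpi and 5.58% ± 2.58 at 7 dpi, and its groups overlapped as shares. Differences in shares were not tested. TGFB3 had the highest TPM of the 5 in every pool but replicates 2 and 4 at 7 dpi, in which tgfb1a lay above it.

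**Figure D3:**
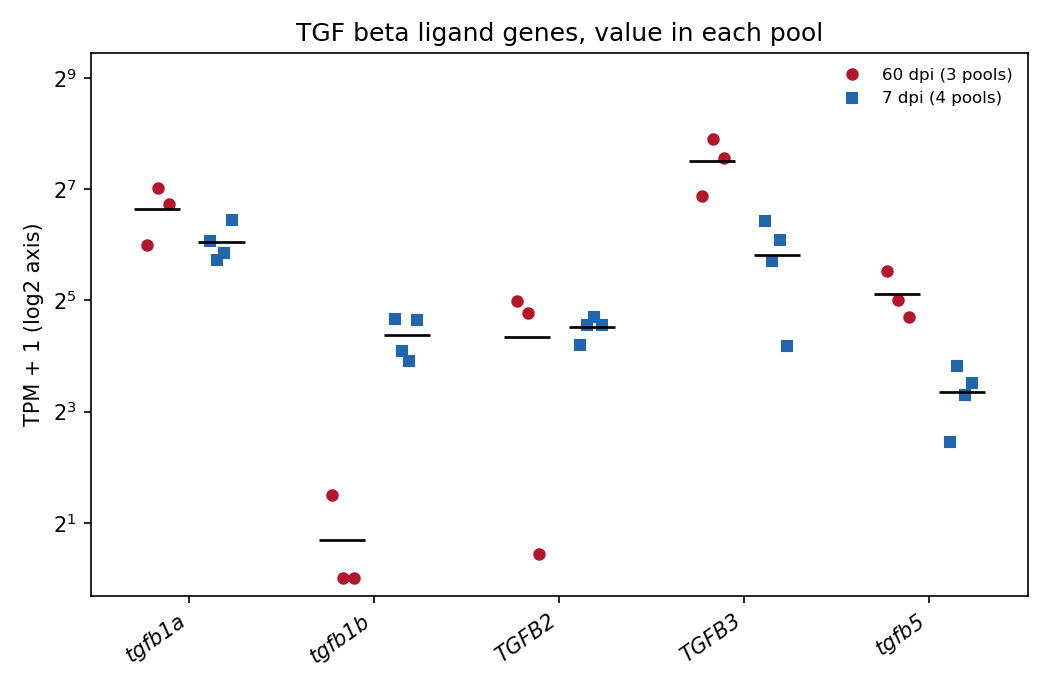
TPM + 1 on a log2 axis for the 5 TGF beta ligand genes, with 1 point per pool (circles, 60 dpi; squares, 7 dpi) and a bar at the arithmetic mean of each group's TPM, plus 1. TGFB3 and tgfb5 lie higher at 60 dpi without overlap and tgfb1b lower, while tgfb1a and TGFB2 overlap, TGFB2 with one 60 dpi pool at 0.36 TPM.

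The activin branch was represented by INHBA (ENSDARG00000012671), the gene of the activin A subunit. It had 43.7, 62.7 and 20.5 TPM at 60 dpi, against 43.0, 12.6, 17.7 and 55.1 TPM at 7 dpi. The pools of both stages covered much the same range, and the log2 fold change was 0.49 ± 0.59 (SE, limma adjusted p = 0.697). Without both replicate 4 libraries the log2 fold change was 1.26 and did not pass either (limma adjusted p = 0.198). INHBB (ENSDARG00000040777), the activin B subunit gene, had 11.9, 1.66 and 21.1 TPM at 60 dpi and 3.21 to 9.60 TPM at 7 dpi (limma adjusted p = 0.773). The other INHBA and INHBB IDs and inha, the inhibin alpha gene, had at most 0.29 TPM in any pool and were not tested.

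BMP and GDF ligand transcripts were scarce at both stages. Of 22 IDs, 5 were listed at 0 in every pool, 10 including these stayed under 1 TPM, and 7 were tested. None of the 7 passed with limma, and none had an unadjusted p under 0.05. bmp7a (ENSDARG00000018260), a BMP of early dorsoventral patterning in zebrafish, was the one tested BMP ligand above 1 TPM in every pool. It had 9.56, 8.81 and 17.0 TPM at 60 dpi, against 10.8, 10.9, 13.4 and 7.05 TPM at 7 dpi, with overlapping groups and a log2 fold change of 0.13 ± 0.59 (SE; in limma, adjusted p = 0.937; 95% interval -1.17 to 1.42; negative with quantile and symbol-based scaling). BMP6 (ENSDARG00000015686), an iron-regulating BMP of endothelial cells in mammals, had 8.11, 23.6 and 0 TPM at 60 dpi, against 8.77, 3.72, 16.7 and 0.06 TPM at 7 dpi. In both groups the lowest pool of BMP6 was replicate 4, and the limma adjusted p was 0.962. Both IDs of BMP2 and that of BMP4, ligands of heart development, had at most 0.95 TPM in any pool. The 2 IDs of GDF10 reached 2.98 TPM in 1 pool, and gdf6a and gdf6b were listed at 0 throughout. The 22 IDs together summed to 29.1 to 73.6 TPM at 60 dpi and 7.11 to 49.3 TPM at 7 dpi.

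LTBP1 (ENSDARG00000056922), whose protein tethers latent TGF beta to the matrix, was the one latent binding protein ID among the members. It had 178, 114 and 104.5 TPM at 60 dpi, against 40.2, 42.0, 63.3 and 72.3 TPM at 7 dpi. The groups did not overlap, and the log2 fold change was 1.27 ± 0.36 (SE), just outside the threshold (limma adjusted p = 0.059). LTBP1 passed with genes kept at 5 TPM (0.0455), without 7 dpi replicate 4 (0.0406) and without both replicate 4 libraries (0.0428).

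Among 13 IDs of extracellular antagonists and modulators, 8 were tested and 1 rose (12.5% against 3.20% of all tested genes). FSTL3 (ENSDARG00000025670), a follistatin-like protein that binds activins and related ligands, had 118, 262 and 108 TPM at 60 dpi, against 21.3, 1.80, 18.7 and 5.04 TPM at 7 dpi. Every 60 dpi pool was above 100 TPM, and no 7 dpi pool reached 22 TPM. Its log2 fold change of 4.02 ± 0.71 (SE; in limma, adjusted p = 0.00678) was the largest of the members. FSTL3 was also the one called member that kept its call in all 17 alternatives (0.00243 to 0.0402). FST (ENSDARG00000057992), follistatin itself, had 5.50, 14.7 and 9.16 TPM at 60 dpi, against 1.24, 3.14, 1.06 and 0 TPM at 7 dpi. Its pools did not overlap either, but at these low levels the log2 fold change of 2.27 ± 0.84 did not pass (SE, limma adjusted p = 0.134). The other FST ID had at most 1.37 TPM.

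The BMP antagonists did not pass in either direction. GREM1 (ENSDARG00000104618), encoding gremlin, a BMP antagonist of fibroblasts in mammals, had 0, 0.36 and 0.09 TPM at 60 dpi, against 0.78, 3.87, 1.34 and 10.4 TPM at 7 dpi. All 60 dpi pools were under 1 TPM, below every 7 dpi pool, and the log2 fold change was -1.77 ± 0.79 (SE, limma adjusted p = 0.215). nog2, a noggin gene, had 24.5, 17.1 and 0 TPM at 60 dpi and at most 5.42 TPM at 7 dpi (limma adjusted p = 0.51). Its log2 fold change of 1.53 became 2.54 without both replicate 4 libraries (limma adjusted p = 0.0916). chrd, encoding chordin, stayed under 3 TPM in every pool. BMPER, whose protein binds BMPs outside the cell, had 8.76, 10.9 and 25.2 TPM at 60 dpi, against 21.6, 13.8, 11.4 and 0.05 TPM at 7 dpi. Its log2 fold change of 0.84 turned to -0.57 without both replicate 4 libraries and to -0.15 without 7 dpi replicate 4. The pseudoreceptor gene BAMBI, which dampens TGF beta receptors and is itself a target of the pathway in mammals, had a major and a minor ID. The major one, ENSDARG00000055381, had 81.4, 73.3 and 49.1 TPM at 60 dpi, against 38.3, 34.6, 56.9 and 44.3 TPM at 7 dpi. It overlapped in one pool of each group, with a log2 fold change of 0.62 ± 0.37 (SE; in limma, adjusted p = 0.359). The minor one, ENSDARG00000099677, had at most 10.9 TPM in any pool (limma adjusted p = 0.999).

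**Figure D4:**
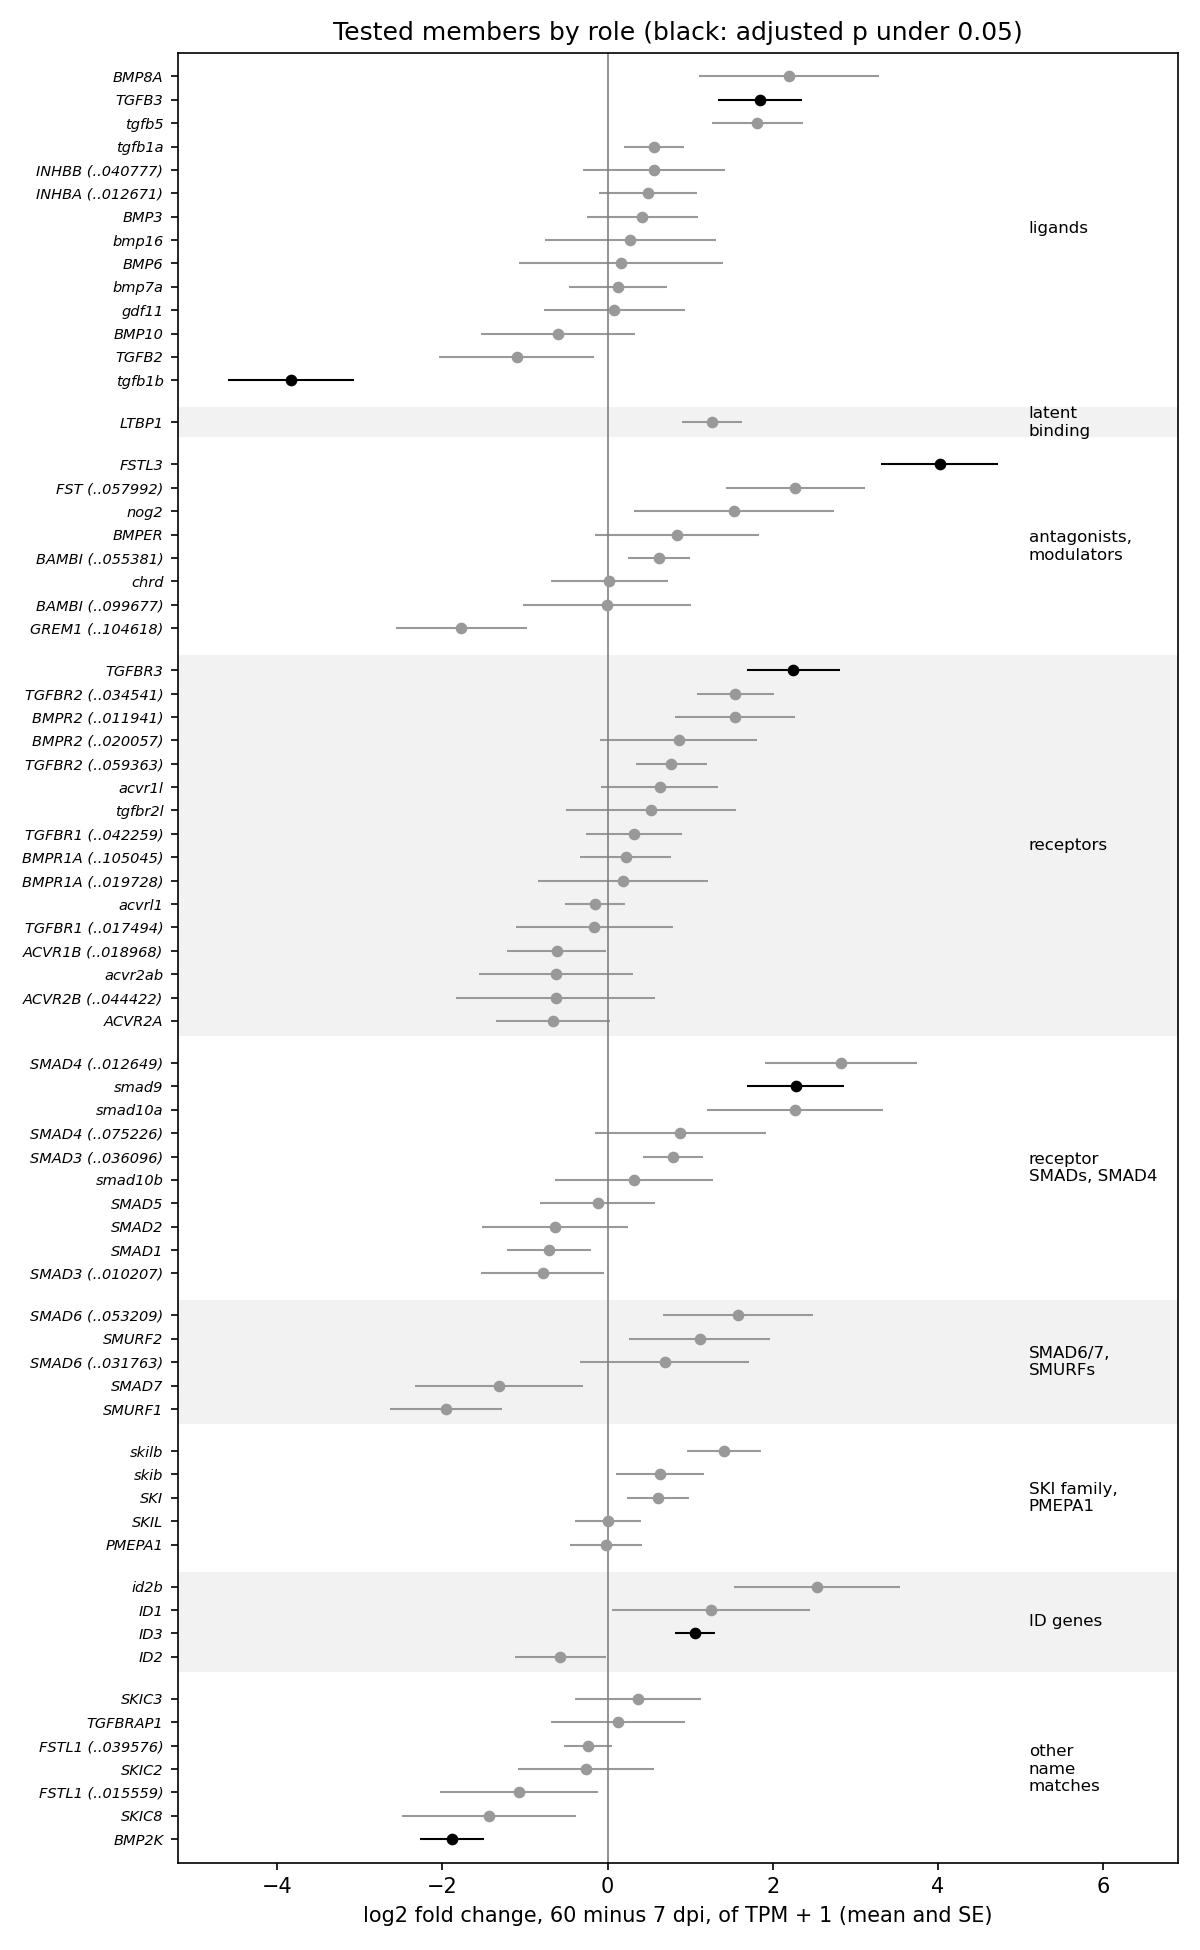
Log2 fold changes of TPM + 1, 60 minus 7 dpi, for the 70 tested members in blocks by role, as points with their SE. Black points mark the 7 members with a limma adjusted p under 0.05, FSTL3 at 4.02 and tgfb1b at -3.83 being the farthest from 0.

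Of 21 receptor IDs 16 were tested, and the co-receptor TGFBR3 alone passed (6.25% against 6.88% of all tested genes). TGFBR3 (ENSDARG00000099979), or betaglycan, presents TGF beta, above all TGF beta 2, to the signalling receptors and also binds inhibin. It had 41.6, 34.4 and 40.8 TPM at 60 dpi, against 5.47, 10.9, 12.4 and 3.76 TPM at 7 dpi. The 60 dpi pools were close to each other and all far above those of 7 dpi. The means were 38.9 ± 3.97 TPM at 60 dpi (SD, n = 3) and 8.12 ± 4.16 TPM at 7 dpi (SD, n = 4). The log2 fold change was 2.25 ± 0.56 (SE), with an adjusted p of 0.0334 by limma. The call was lost in 11 of 17 alternatives, with little change in the log2 fold change: without 60 dpi replicate 1, 2 or 4 the adjusted p was 0.102, 0.0925 and 0.0853, and without 7 dpi replicate 1, 2 or 3 it was 0.0642, 0.055 and 0.0529. Without both replicate 4 libraries it was 0.0569 at a log2 fold change of 1.94. Of 7 tested mural cell markers, rgs5b and RGS5 also rose, while MYH11 and acta2 had negative log2 fold changes, and the part of mural cells in this result was not tested.

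TGFBR2, the type II receptor that binds TGF beta, had 2 IDs, and in both every 60 dpi pool lay above every 7 dpi pool. The scarcer one, ENSDARG00000034541, had 59.8, 57.2 and 38.8 TPM at 60 dpi, against 29.9, 12.1, 14.3 and 15.3 TPM at 7 dpi. Its log2 fold change was 1.55 ± 0.47 (SE, limma adjusted p = 0.0686), and it passed with median ratio scaling (0.0434), with quantile normalization (0.0445) and without 7 dpi replicate 1 (0.0454). The more abundant TGFBR2 ID, ENSDARG00000059363, had 93.7, 93.7 and 112 TPM at 60 dpi, against 68.4, 74.4, 85.2 and 25.6 TPM at 7 dpi. Its log2 fold change was 0.77 ± 0.43 (SE, limma adjusted p = 0.322), and 0.30 without both replicate 4 libraries. This more abundant ID made up 61.0, 62.1 and 74.3% of the TPM of the pair at 60 dpi, against 69.6, 86.1, 85.6 and 62.6% at 7 dpi, and the groups overlapped. RSEM divides reads between similar transcripts, so the split within pairs that share a symbol is uncertain.

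The type I receptors showed no member past the threshold. TGFBR1 (ENSDARG00000042259), the kinase that TGFBR2 activates, had 17.3, 8.23 and 18.6 TPM at 60 dpi, against 14.4, 8.48, 10.6 and 11.1 TPM at 7 dpi. Its levels lay in one range at both stages, with a log2 fold change of 0.32 ± 0.58 (SE; in limma, adjusted p = 0.811). acvrl1 (ENSDARG00000018179), the type I receptor for BMP9 and BMP10 in endothelium, was the most abundant of the type I genes. It had 97.7, 50.0 and 50.0 TPM at 60 dpi, against 83.0, 69.2, 68.9 and 59.2 TPM at 7 dpi, with one 60 dpi pool above and the others below all 7 dpi pools (limma adjusted p = 0.867). BMPR1A (ENSDARG00000105045), a BMP type I receptor, had 13.5, 11.95 and 19.9 TPM at 60 dpi and 9.04 to 17.8 TPM at 7 dpi. The type I IDs together summed to 111 to 157 TPM at 60 dpi and 108 to 144 TPM at 7 dpi.

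The type II IDs summed to 297, 291 and 333 TPM at 60 dpi and to 268, 182, 196 and 100.1 TPM at 7 dpi, without overlap. BMPR2 (ENSDARG00000011941), the main BMP type II receptor, had 93.7, 113 and 131 TPM at 60 dpi, against 98.3, 58.8, 53.2 and 5.89 TPM at 7 dpi. It was very low in 7 dpi replicate 4 alone, and 7 dpi replicate 1 lay within the range of the 60 dpi pools. Its log2 fold change was 1.54 ± 0.73 (SE, limma adjusted p = 0.238), and 0.60 without both replicate 4 libraries. The activin type II receptor ACVR2A had 2.87 to 20.4 TPM at 60 dpi and 9.58 to 19.8 TPM at 7 dpi. The ID of ACVR2B that was tested was above 10 TPM in 7 dpi replicate 4 alone, at 31.6 TPM.

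**Figure D5:**
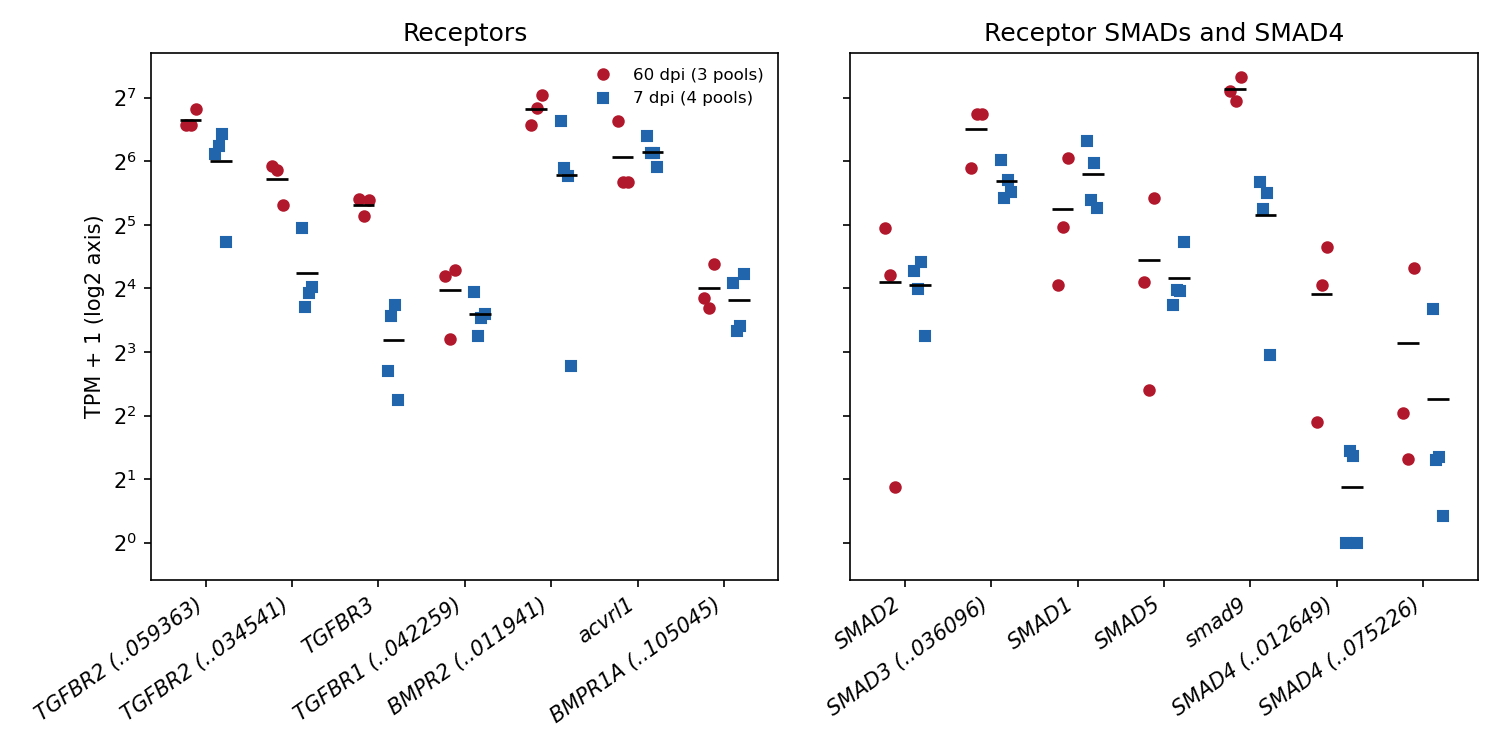
TPM + 1 on a log2 axis for the main receptor IDs (left) and for receptor SMADs and SMAD4 (right), with 1 point per pool (circles, 60 dpi; squares, 7 dpi) and a bar at the arithmetic mean of each group's TPM, plus 1. TGFBR3 and smad9 passed the test, while both TGFBR2 IDs and SMAD4 (ENSDARG00000012649) did not, although their groups do not overlap either.

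All 10 IDs of receptor SMADs and SMAD4 were tested, and smad9 alone passed (10% against 6.88% of all tested genes). smad9 (ENSDARG00000021938), a SMAD of the BMP branch, had 136, 122 and 159 TPM at 60 dpi, against 50.1, 37.2, 44.2 and 6.76 TPM at 7 dpi. No 7 dpi pool came near the 60 dpi pools, and 7 dpi replicate 4 was again the lowest. The means were 139 ± 19.0 TPM at 60 dpi (SD, n = 3) and 34.6 ± 19.3 TPM at 7 dpi (SD, n = 4). The log2 fold change was 2.28 ± 0.59 (SE), with an adjusted p of 0.0385 by limma. Without both replicate 4 libraries smad9 still passed, with a log2 fold change of 1.54 and an adjusted p of 0.0313. The call was lost in 10 of 17 alternatives, among them leaving out 60 dpi replicate 1, 2 or 4 (0.0898, 0.0885 and 0.103) or 7 dpi replicate 2 or 3 (0.0616 and 0.0529).

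The other BMP branch SMADs did not pass. SMAD1 (ENSDARG00000027199) had 15.5, 30.4 and 65.2 TPM at 60 dpi, against 78.5, 40.8, 61.6 and 37.2 TPM at 7 dpi, a log2 fold change of -0.71 ± 0.51 (SE; in limma, adjusted p = 0.457). Without both replicate 4 libraries the log2 fold change of SMAD1 was -1.38 (limma adjusted p = 0.103). SMAD5 (ENSDARG00000037238) had 16.2, 4.31 and 42.0 TPM at 60 dpi and 12.3 to 25.7 TPM at 7 dpi (limma adjusted p = 0.951). At 60 dpi smad9 had more TPM than SMAD1 and SMAD5 in every pool. At 7 dpi it had less than SMAD1 in every pool.

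In the TGF beta branch, SMAD3 (ENSDARG00000036096) had 58.3, 106 and 106 TPM at 60 dpi, against 63.9, 42.1, 51.0 and 44.9 TPM at 7 dpi. Replicate 1 was the lowest SMAD3 pool at 60 dpi and the highest at 7 dpi, and the groups overlapped there (log2 fold change 0.79 ± 0.37, SE, limma adjusted p = 0.232). The second SMAD3 ID, ENSDARG00000010207, had at most 9.46 TPM. SMAD2 had 29.8, 17.6 and 0.84 TPM at 60 dpi, against 18.3, 14.9, 20.3 and 8.54 TPM at 7 dpi. It was lowest in replicate 4 of each group, and its log2 fold change of -0.64 ± 0.88 (SE; in limma, adjusted p = 0.744) turned to 0.36 without both of these libraries and to 0.60 without 60 dpi replicate 4. SMAD4 (ENSDARG00000012649), the partner that both branches share, had 2.73, 15.5 and 24.1 TPM at 60 dpi, against 0, 1.72, 1.58 and 0 TPM at 7 dpi. The groups did not overlap, but the log2 fold change of 2.83 ± 0.92 did not pass (SE, limma adjusted p = 0.0926; 0.0503 to 0.223 over the alternatives). The other SMAD4 ID, ENSDARG00000075226, had 3.13, 1.50 and 18.9 TPM at 60 dpi, against 11.7, 1.45, 1.54 and 0.33 TPM at 7 dpi. Its 7 dpi replicate 1 stood far above the other 7 dpi pools.

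The inhibitory SMADs and the SMURF ubiquitin ligases, which turn receptors and SMADs over, gave no call in 5 tested IDs. SMURF1 had 6.57, 1.15 and 6.61 TPM at 60 dpi, against 21.6, 17.2, 14.0 and 21.7 TPM at 7 dpi. All 60 dpi pools lay below all 7 dpi pools, and the log2 fold change was -1.96 ± 0.67 (SE, limma adjusted p = 0.11). SMAD7 (ENSDARG00000016858), which blocks both branches at the receptor, had 22.8, 13.1 and 0.18 TPM at 60 dpi, against 6.40, 13.3, 17.1 and 56.7 TPM at 7 dpi. Replicate 4 held its lowest value at 60 dpi and its highest at 7 dpi, and the log2 fold change of -1.31 ± 1.02 (SE; in limma, adjusted p = 0.499) turned to 0.56 without both replicate 4 libraries. The 2 IDs of SMAD6, an inhibitor mostly of the BMP branch, had 3.01 to 22.5 TPM at 60 dpi and 0.27 to 19.7 TPM at 7 dpi, with limma adjusted p-values of 0.34 and 0.763.

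The SKI family and PMEPA1, which restrain SMAD2 and SMAD3 and are partly induced by TGF beta, had 5 tested IDs and no call. skilb had 45.3, 75.1 and 46.8 TPM at 60 dpi, against 33.2, 14.3, 19.2 and 16.8 TPM at 7 dpi. The groups of skilb did not overlap, with a log2 fold change of 1.41 ± 0.45 (SE; in limma, adjusted p = 0.0861; 0.0545 to 0.258 over the alternatives). SKI had 53.8, 43.3 and 43.4 TPM at 60 dpi, against 28.4, 26.9, 33.5 and 32.6 TPM at 7 dpi. These groups did not overlap either, at a smaller log2 fold change of 0.61 ± 0.38 (SE; in limma, adjusted p = 0.379). SKIL had 49.2, 34.8 and 45.5 TPM at 60 dpi, against 48.8, 28.0, 41.5 and 58.1 TPM at 7 dpi, and PMEPA1 had 44.6, 66.3 and 78.3 TPM at 60 dpi, against 101, 31.7, 69.8 and 66.4 TPM at 7 dpi. The pools of both stages were interleaved for SKIL and PMEPA1, with 95% intervals of the log2 fold change of -0.86 to 0.87 and -0.96 to 0.92.

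The ID genes, which encode inhibitors of basic helix-loop-helix factors and are standard targets of BMP signalling, differed among themselves. Of 4 tested, 1 rose (25% against 3.20% of all tested genes). ID3 (ENSDARG00000054823), the most abundant member at 60 dpi, had 791, 697 and 831 TPM at 60 dpi, against 410.4, 311, 342 and 425 TPM at 7 dpi. Both groups were tight, with means of 773 ± 68.8 TPM at 60 dpi (SD, n = 3) and 372 ± 54.6 TPM at 7 dpi (SD, n = 4). The log2 fold change was 1.06 ± 0.24 (SE, limma adjusted p = 0.0226). The call was lost in 9 of 17 alternatives: without 60 dpi replicate 1, 2 or 4 the adjusted p was 0.0616, 0.0587 and 0.0691, and without 7 dpi replicate 2 or 3 it was 0.0559 and 0.0739. With quantile normalization it was 0.0591 at a log2 fold change of 0.69, and without both replicate 4 libraries it was 0.0597 at a log2 fold change of 1.08.

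ID1 (ENSDARG00000040764) did not follow ID3. It had 69.6, 59.2 and 139.9 TPM at 60 dpi, against 99.3, 104, 93.3 and 0.59 TPM at 7 dpi. The first 3 of the 7 dpi pools lay close together while replicate 4 was near 0, so its log2 fold change of 1.25 (95% interval -1.37 to 3.87, limma adjusted p = 0.603) turned to -0.24 without that pool and to -0.61 without both replicate 4 libraries. ID2 had 44.3, 29.3 and 65.9 TPM at 60 dpi, against 105, 25.9, 49.9 and 139 TPM at 7 dpi (limma adjusted p = 0.605). id2b had 17.9, 6.76 and 70.4 TPM at 60 dpi, against 0, 4.25, 11.3 and 2.18 TPM at 7 dpi. Replicate 4 made up most of its 60 dpi level, and the log2 fold change of 2.53 ± 1.0 did not pass (SE, limma adjusted p = 0.161). ID4 had at most 3.96 TPM and was not tested.

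The members that share only a name with the pathway, or whose role in it is uncertain, had 9 IDs. Of these 7 were tested and 1 fell (14.3% against 3.68% of all tested genes). BMP2K (ENSDARG00000020009) encodes a kinase of clathrin-coated vesicles that is named for its induction by BMP2 in mammalian cells. It had 26.2, 25.2 and 15.2 TPM at 60 dpi, against 112, 78.4, 66.5 and 79.3 TPM at 7 dpi. All 60 dpi pools lay far below all 7 dpi pools, with means of 22.2 ± 6.07 TPM at 60 dpi (SD, n = 3) and 84.0 ± 19.5 TPM at 7 dpi (SD, n = 4). BMP2K fell by 1.88 ± 0.39 on the log2 scale (SE, limma adjusted p = 0.0132), a call kept in 15 of 17 alternatives and lost with the replicate block (0.0753) and without the mean-variance trend (0.0745). The leukocyte markers moved in the same direction, and their part was not tested. FSTL1 (ENSDARG00000039576), a secreted glycoprotein of epicardium and fibroblasts that binds BMP4 in mammals, stayed abundant. It had 217, 155 and 296 TPM at 60 dpi, against 271, 232, 283 and 230.4 TPM at 7 dpi, a log2 fold change of -0.23 ± 0.29 (SE; in limma, adjusted p = 0.706) with a 95% interval of -0.87 to 0.40. The second FSTL1 ID had at most 19.7 TPM. SKIC2, SKIC3 and SKIC8, subunits of a cytoplasmic RNA-degrading complex, and TGFBRAP1, a vesicle tethering protein gene, did not pass.

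Genes of the pathway outside the name rule were taken from 7 lists with 123 IDs, of which 93 were tested. In all 10 rose (10.8% against 3.20% of all tested genes) and 1 fell (1.08% against 3.68%), with a median log2 fold change of 0.18. In 22 of the 93 (23.7% against 10.3% of all tested genes) every 60 dpi pool lay above every 7 dpi pool, and in 6 (6.45% against 11.0%) below. Some of them were already known to differ in these libraries when the lists were drawn up, so the counts are a description.

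Of 23 tested genes known to respond to TGF beta, 6 rose (26.1% against 3.20% of all tested genes) and none fell. An unadjusted limma p under 0.05 was found for 9 (39.1% against 22.0%), in both directions. Besides the 6 that rose, these were ccn2b (log2 fold change 2.12), TAGLN (ENSDARG00000045408, -1.46) and acta2 (-2.66). Every 60 dpi pool of that TAGLN ID lay below every 7 dpi pool. In the other TAGLN ID (0.62) every 60 dpi pool lay above. The largest change was that of CCN1 (ENSDARG00000023062), a matricellular protein gene that many growth factors and stretch induce. It had 395, 752 and 525 TPM at 60 dpi, against 53.1, 29.7, 35.6 and 57.2 TPM at 7 dpi, a log2 fold change of 3.64 ± 0.35 (SE; in limma, adjusted p = 0.000252). CCN2 (ENSDARG00000042934), connective tissue growth factor, had 364, 379.6 and 434 TPM at 60 dpi, against 178, 71.0, 134 and 98.9 TPM at 7 dpi (log2 fold change 1.77 ± 0.34, SE, limma adjusted p = 0.00938). Neither gene's groups overlapped. The 2 IDs of JUNB, an AP-1 factor gene that is also an immediate early gene, rose by 2.69 and 2.13 on the log2 scale. loxl2a, a collagen crosslinking enzyme gene, averaged 369 ± 102 TPM at 60 dpi (SD, n = 3) and 104 ± 26.2 TPM at 7 dpi (SD, n = 4). twist1a, a mesenchymal transcription factor gene, averaged 109 ± 30.4 TPM at 60 dpi and 26.5 ± 12.4 TPM at 7 dpi (limma adjusted p = 0.0178). The twist1a call was lost in 5 of 17 alternatives, among them leaving out 60 dpi replicate 2 or 4 (0.0668 and 0.0617) or both replicate 4 libraries (0.0683). Its paralog twist1b did not pass, with a log2 fold change of -1.24 (limma adjusted p = 0.447) and 0.11 without both replicate 4 libraries. The calls of CCN1 and JUNB (ENSDARG00000074378) were kept in all 17 alternatives. Without the mean-variance trend the calls of CCN2 (0.0973), the other JUNB ID (0.0608) and loxl2a (0.0864) were lost. The CCN2 call was also lost with the replicate block (0.0577).

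Of 14 tested genes known to respond to BMP, none passed with limma. An unadjusted p under 0.05 was found for 2 (14.3% against 22.0% of all tested genes). Of 11 further antagonists and procollagen C-proteinases none passed. Of these, 3 (27.3% against 22.0%) had an unadjusted p under 0.05, and 10 (90.9% against 48.3%) had a positive log2 fold change. No further co-receptor (4 tested) and no further ligand (2 tested) passed either, and none of these had an unadjusted p under 0.05. The log2 fold change was negative in 3 of the 4 co-receptors and in 2 of the 2 ligands.

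Latency and activation genes moved in both directions. Of 12 tested IDs 2 were higher (16.7% against 3.20% of all tested genes) and 1 lower (8.33% against 3.68%). A positive log2 fold change was found in 6 and a negative one in 6. DCN (ENSDARG00000012066), decorin, a matrix proteoglycan that binds TGF beta, had 1091, 1029 and 1215 TPM at 60 dpi, against 290.1, 479, 669 and 531 TPM at 7 dpi (log2 fold change 1.23 ± 0.30, SE, limma adjusted p = 0.0278). The DCN call was lost in 11 of 17 alternatives, among them leaving out 60 dpi replicate 1, 2 or 4 (0.0646, 0.072 and 0.0847) or 7 dpi replicate 2 (0.057). emilin1b, whose mammalian counterpart holds back processing of the TGF beta precursor, had 116, 108 and 77.7 TPM at 60 dpi and 26.9 to 35.1 TPM at 7 dpi (limma adjusted p = 0.0181). Its adjusted p was 0.0687, 0.072 and 0.058 without 60 dpi replicate 1 or 2 or 7 dpi replicate 3. NRROS (ENSDARG00000071491), which anchors latent TGF beta on myeloid cells in mammals, had 0.40, 4.68 and 9.72 TPM at 60 dpi, against 39.5, 19.4, 34.4 and 26.3 TPM at 7 dpi. It fell by 2.76 ± 0.73 on the log2 scale (SE, limma adjusted p = 0.0416), alongside the leukocyte markers, whose part was not tested. The NRROS call was lost in 10 of 17 alternatives, among them leaving out any 1 library other than 60 dpi replicate 4 (0.0623 to 0.118).

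Among 27 tested SMAD partners, adaptors and ubiquitin system genes 2 rose (7.41% against 3.20% of all tested genes) and none fell. Of the 27, 11 had a positive log2 fold change (40.7% against 48.3%) and 16 a negative one. DAB2 (ENSDARG00000053091), an endocytic adaptor that links TGF beta receptors to SMADs, had 292, 423 and 371 TPM at 60 dpi, against 60.3, 74.6, 73.5 and 75.7 TPM at 7 dpi. Both groups of DAB2 were narrow and far apart, with a log2 fold change of 2.32 ± 0.29 (SE; in limma, adjusted p = 0.000948), and the call was kept in all 17 alternatives. TGIF1 (ENSDARG00000059337), a corepressor of SMAD2 and SMAD3, had 176, 239 and 247 TPM at 60 dpi, against 111, 61.8, 86.5 and 84.1 TPM at 7 dpi (log2 fold change 1.36 ± 0.31, SE, limma adjusted p = 0.0228). Its groups did not overlap, but the call was lost in 7 of 17 alternatives, among them leaving out 60 dpi replicate 2 or 4 (0.0877 and 0.069) or 7 dpi replicate 2 or 3 (0.0575 and 0.06).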

How the data were processed

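RNA was profiled in 7 sorted pools (3 at 60 dpi, 4 at 7 dpi). The authors deposited 1 table of TPM values for 31388 gene IDs; all libraries share a fixed sum, so no read depth is kept and precision rests on the number of pools. RSEM 1.2.25, cutadapt, CASAVA 1.8.2 and the genome build Zv9 are named in the submitters' processing notes; aligner and annotation release are not given in the sources used here. Groups and replicate numbers come from the sample titles. IDs were named with the supplied table (25925 named, 82.6%), in which paralogs can share a symbol and are told apart by ID.

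Genes with at least 1 TPM in at least 3 libraries were kept (15130). limma 3.58.1 (R 4.3.3) was fitted across them to log2(TPM + 1), with a pseudocount of 1, a mean-variance trend and no term but the time point. P-values are two-sided and Benjamini-Hochberg adjusted over all 15130 genes at a threshold of 0.05. The fit was also run on simulated data. These had the same noise per gene in every library and changes planted only in more abundant genes. They do not cover scarce genes or the uneven detection of the replicate 4 libraries. The 17 alternatives were median ratio scaling, quantile normalization, TPM rescaled over IDs with a symbol, pseudocounts of 0.1 and 5, no filter and a filter at 5 TPM, a replicate block, no trend, each library left out, and both replicate 4 libraries left out.

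Named were the members past the threshold, the 4 with the highest mean in each role and a fixed set of core genes; of the other pathway genes, those past the threshold. Outside this rule, and chosen after their values were seen, were tgfb5, BMPR1A, ACVR2A, ACVR2B, the SKIC genes and every untested member named. Members, lists and this rule were chosen with earlier results of these data known. Tables and figures used pandas 2.3.3, numpy 2.4.6, matplotlib 3.10.9 and Python 3.11.15. No genome or sequence was used.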

Additional observations from a re-analysis of the deposited data

Results flagged for a closer look

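Single 7 dpi pools stood apart from the other pools in 8 of 90 quantities examined at that stage; by chance about 1 in 20 such groups would be picked out, and groups of 3 pools, as at 60 dpi, were not examined. ID1 was at 0.59 TPM in replicate 4, against 93.3 to 104 TPM in the others. SMAD3 (ENSDARG00000010207) was at 5.85 TPM in replicate 3, against 9.19 to 9.46 TPM. SMAD4 (ENSDARG00000075226) was at 11.7 TPM in replicate 1, against 0.33 to 1.54 TPM. DAB2 was at 60.3 TPM in replicate 1, against 73.5 to 75.7 TPM. The share of TGFB2 in the summed TPM of the TGF beta ligand genes was 8.80% in replicate 1, against 14.0 to 14.6%, and that of tgfb1a was 53.9% in replicate 4, against 33.0 to 33.6%. Replicate 4 had 9844 gene IDs at 1 TPM or more, against 14599 to 15431, and 47 members, against 67 to 70.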

How the results depend on the processing

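Of the 7 members that passed, 1 (FSTL3) did so in all 17 alternatives, and none changed sign in any. The count of members called higher, 5, became 2 with symbol-based scaling, 3 at a pseudocount of 0.1, 2 with no filter, 1 without the trend, 3 without both replicate 4 libraries (FSTL3, smad9 and LTBP1, which is not among the 5), and 1 to 6 with single libraries left out. The count called lower, 2, became 1 without the trend. The count of other pathway genes called higher, 10, became 3 without the trend and 6 to 10 with single libraries left out (6 without 60 dpi replicate 2). The count called lower, 1, became 2 with median ratio scaling, 2 with quantile normalization, 4 with symbol-based scaling, 2 without both replicate 4 libraries, 0 at a pseudocount of 0.1, with no filter and without the trend, and 0 to 3 with single libraries left out. The cause was not tested.

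Replicate numbers are not said to mark a shared batch, and deviations of same-numbered pools correlated at 0.0054, 0.0145 and 0.028 (replicates 1, 2 and 4), so the numbers were not treated as a pairing; replicates 2 and 4 correlated best with their own number and replicate 1 did not. With the replicate block 322 genes passed in place of 1041, of the members 1 higher and 0 lower, and of the other pathway genes 5 higher and 0 lower. Replicate 3 exists only at 7 dpi, so that pool adds nothing to the difference between stages in the block fit. The log2 fold changes of the block fit equal those without 7 dpi replicate 3 (2.01 for TGFB3 in both). These alternatives are therefore not independent of each other.

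Among 43 genes followed that did not pass, 2 passed in an alternative and 20 changed sign in at least 1. Without both replicate 4 libraries the log2 fold change turned to -0.61 for ID1, 0.66 for BAMBI (ENSDARG00000099677), -0.57 for BMPER, -0.53 for chrd, 0.19 for FSTL1 (ENSDARG00000015559), -0.33 for TGFBRAP1, 0.56 for SMAD7, -0.31 for bmp7a, 0.40 for TGFB2, 0.36 for SMAD2, -0.42 for SMAD4 (ENSDARG00000075226), 0.018 for TGFBR1 (ENSDARG00000017494) and -0.30 for BMPR2 (ENSDARG00000020057). With symbol-based scaling it turned to -0.26 for SKIL, -0.10 for chrd, -0.12 for TGFBRAP1, -0.035 for BMP6 and -0.12 for bmp7a. With quantile normalization it was -0.041 for SKIL, 0.16 for BAMBI (ENSDARG00000099677), -0.0069 for bmp7a and 0.059 for TGFBR1 (ENSDARG00000017494), and with median ratio scaling -0.039 for SKIL. At a pseudocount of 5 it was -0.00085 for SKIL, 0.066 for BAMBI (ENSDARG00000099677) and -0.026 for chrd, and at 0.1 it was -0.20 for BMP6. With the replicate block it was 0.037 for PMEPA1, -0.011 for SKIL, 0.0063 for BAMBI (ENSDARG00000099677) and -0.067 for chrd.

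With single libraries left out, genes that changed sign ranged as follows. The log2 fold change was -0.24 to 1.77 for ID1, -0.33 to 0.21 for PMEPA1, -0.19 to 0.15 for SKIL, -0.57 to 0.96 for BAMBI (ENSDARG00000099677), -0.15 to 1.33 for BMPER, -0.34 to 0.29 for chrd, -2.08 to 0.10 for FSTL1 (ENSDARG00000015559), -0.67 to 0.58 for TGFBRAP1 and -0.13 to 1.43 for SMAD6 (ENSDARG00000031763). It was -2.16 to 0.0046 for SMAD7, -0.85 to 1.46 for BMP6, -0.15 to 0.29 for bmp7a, -1.89 to 0.38 for TGFB2, -0.078 to 1.45 for INHBB, -1.43 to 0.60 for SMAD2, -0.84 to 0.66 for SMAD5, -0.69 to 0.53 for TGFBR1 (ENSDARG00000017494) and -0.47 to 0.0078 for acvrl1.

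TPM + 1 understates changes of scarce genes, and with 3 pools against 4 a difference that missed the threshold is not shown to be absent. Of the 22 BMP and GDF ligand IDs only 7 were abundant enough to test.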
